A study of Mus musculus with 38 samples.

Results

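The NMDA receptor is a glutamate-gated cation channel of excitatory synapses, held at the postsynaptic density in part through the scaffold PSD95. Every receptor contains the obligatory subunit GluN1, which binds glycine or D-serine and is encoded by Grin1. It assembles with glutamate-binding GluN2 subunits, of which GluN2B (Grin2b) dominates in young cortex, GluN2A (Grin2a) accumulates as synapses mature and GluN2D (Grin2d) is found largely in interneurons in forebrain. GluN3A (Grin3a) is a further glycine-binding subunit that is prominent in early postnatal cortex. Described here are ribosome footprints on the mRNAs of these 5 genes, a named list of subunits, among 22478 protein-coding genes with a symbol. For each gene the longest annotated transcript was used, by the summed length of its coding sequence (CDS) and untranslated regions. Levels are CPM, footprint counts scaled to the CDS total of each library. The remaining subunit genes Grin2c and Grin3b are not part of the list. Their median levels over the 38 libraries were 0.339 and 0 CPM per kb of CDS.

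The libraries came from primary cortical cultures of mouse embryos transduced with a doxycycline-inducible lentivirus carrying the biotin ligase TurboID. PSD95-TurboID is a fusion of TurboID to rat PSD95, with its palmitoylation signal, between the untranslated regions of PSD95, and labels proteins near dendritic puncta. Pan-TurboID has no targeting signal. Biotin was given for 30 min per the labels, although the study's methods give a shorter time for the DHPG samples. Ribosomes were held with cycloheximide, and footprints were read from the lysate (input) and from the streptavidin pulldown. In the KCl experiment, resting neurons were compared with depolarized neurons, which had been silenced for 2 h with tetrodotoxin and DL-AP5 before 1 h in 55 mM KCl. Per the study's methods, the KCl was then exchanged during 30 min for fresh medium that held biotin and again both blockers. Both states were collected with both baits as input and pulldown, 3 libraries in each of 8 groups. All other groups carried PSD95-TurboID alone. Neurons exposed to 100 µM DHPG, which activates group I metabotropic glutamate receptors, during 10 min after silencing gave 3 inputs and 3 pulldowns. Neurons given siRNA against eIF4G2 (20 nM, 72 h) gave 2 inputs and 2 pulldowns at rest and as many after KCl. DL-AP5 is itself an NMDA receptor antagonist, so the depolarized and DHPG groups had met a blocker of the receptor described here. No library with a control siRNA was analysed here, so knockdown and siRNA treatment cannot be told apart.

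CDS totals ranged from 2048601 to 14646331 counts, and the replicate 1 libraries after KCl were among the shallowest. In cultures that mix cell types, fewer cells of a type and less RNA per cell cannot be told apart, and footprints alone do not separate mRNA abundance from ribosome density. Neuronal markers were high everywhere, with a summed level of 5907 to 9952 CPM over 6 genes in inputs, while 8 astrocyte markers summed to 236 to 1296 CPM, 8 oligodendrocyte lineage markers to 44.5 to 608 CPM and 7 microglial markers to at most 24.8 CPM. Dlg4, the gene of PSD95, averaged 2017 CPM in resting PSD95-TurboID pulldowns against 159 CPM in their inputs, and part of these counts can come from the PSD95 sequence of the construct. After KCl, its level was 337 CPM in the pulldown of replicate 1 and reached 5220 CPM in the highest replicate. Fos, an activity-induced gene, averaged 334 CPM in resting and 2603 CPM in depolarized PSD95-TurboID inputs, but 39.5 CPM in DHPG inputs, below both.

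The start-codon windows of the 5 transcripts are printed because the deposited counts were split at these positions into 5′ UTR and CDS. Each is the coding strand of mm10 (GRCm38), all genes lying on the minus strand, with the annotated start codon in capitals and 12 bases before it. They lie at chr2:25318869-25318898, chr16:9992516-9992545, chr6:136044284-136044313, chr7:45866550-45866579 and chr4:49845064-49845093, in the order printed.
Grin1: tgcccgaggctcATGagcaccatgcacctg
Grin2a: taagtggcgaccATGggcagactgggctac
Grin2b: gacgagctgaagATGaagcccagcgcagag
Grin2d: ggcccgcaggcgATGcgcggcgccggtggc
Grin3a: cgggtctcagtaATGaggagactgagtttg
The CDS lengths were 2880 nt for Grin1, 4395 nt for Grin2a, 4449 nt for Grin2b, 3972 nt for Grin2d and 3408 nt for Grin3a. For these 5 genes the longest transcript was also the one with the highest mean count.

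All 5 genes had counts in each of the 38 libraries, but at very different depths. Per kb of CDS, the median level was 289.6 CPM for Grin1, 60.1 CPM for Grin2b, 7.72 CPM for Grin3a, 7.64 CPM for Grin2d and 4.18 CPM for Grin2a. Grin1 was above Grin2b in 38 of 38 libraries, and Grin2b was above each of the other members in 38 of 38. Grin3a and Grin2d were not in a fixed order, with Grin3a higher in 23 of 38 libraries, and Grin2d was above Grin2a in 34 of 38. Counts per library ranged from 1240 to 17925 for Grin1 and from 444 to 6933 for Grin2b, but from 17 to 314 for Grin2a, from 18 to 662 for Grin2d and from 52 to 439 for Grin3a. Counting error is therefore smaller for the first pair than for the other 3 genes, while the spread between libraries adds to it in all 5.

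Within the GluN2 family, Grin2b made up most of the footprint density at every condition. Its share of the summed per-kb level of Grin2a, Grin2b and Grin2d was 79.6% ± 0.292 (SD, n = 3) in resting PSD95-TurboID inputs and 80.5% ± 4.43 (SD, n = 3) after KCl. It was 87.7% ± 0.815 (SD, n = 3) in DHPG inputs and 90.3% ± 0.0356 (SD, n = 2) in resting knockdown inputs. Grin2d took 13.9% ± 1.26 (SD, n = 3), 7.52% ± 0.856 (SD, n = 3) and 5.56% ± 0.300 (SD, n = 2) in the resting, DHPG and resting knockdown inputs. These ranges did not overlap. Depolarized knockdown inputs, at 6.44% to 7.72%, overlapped the DHPG range of 6.54% to 8.14%. Depolarized PSD95-TurboID inputs, at 10.2% to 19.7%, overlapped the resting range of 12.5% to 14.8%. DHPG and knockdown are separate experiments from KCl, so experiment and treatment cannot be told apart here. The log2 ratio of Grin2a to Grin2b per kb was −3.72 ± 0.25 (SD, n = 6) at rest and −4.02 ± 0.49 (SD, n = 6) after KCl over the inputs of both baits. The difference of −0.30 did not pass an exact two-sided permutation test (p = 0.219). Within PSD95-TurboID inputs it was −0.39 (exact permutation p = 0.4) and within Pan-TurboID inputs −0.22 (exact permutation p = 0.5), where 3 against 3 libraries cannot go below p = 0.1.

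Across the 14 groups, the highest group mean was 2.26-fold the lowest for Grin1, 2.57-fold for Grin2a, 3.39-fold for Grin2b, 3.795-fold for Grin2d and 1.72-fold for Grin3a. For Grin1 the order ran from depolarized Pan-TurboID pulldowns, 1295 CPM ± 138 (SD, n = 3), to depolarized knockdown inputs, 573 CPM ± 10.4 (SD, n = 2). Neighbours in that order overlapped in 9 of 13 steps. For Grin2b the order ran from DHPG pulldowns to depolarized PSD95-TurboID inputs and 9 of 13 neighbouring pairs overlapped. For Grin2a, 12 of 13 overlapped. For Grin2d and Grin3a, 13 of 13 overlapped, so no step of their order exceeded the spread over libraries.

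**Figure D1:**
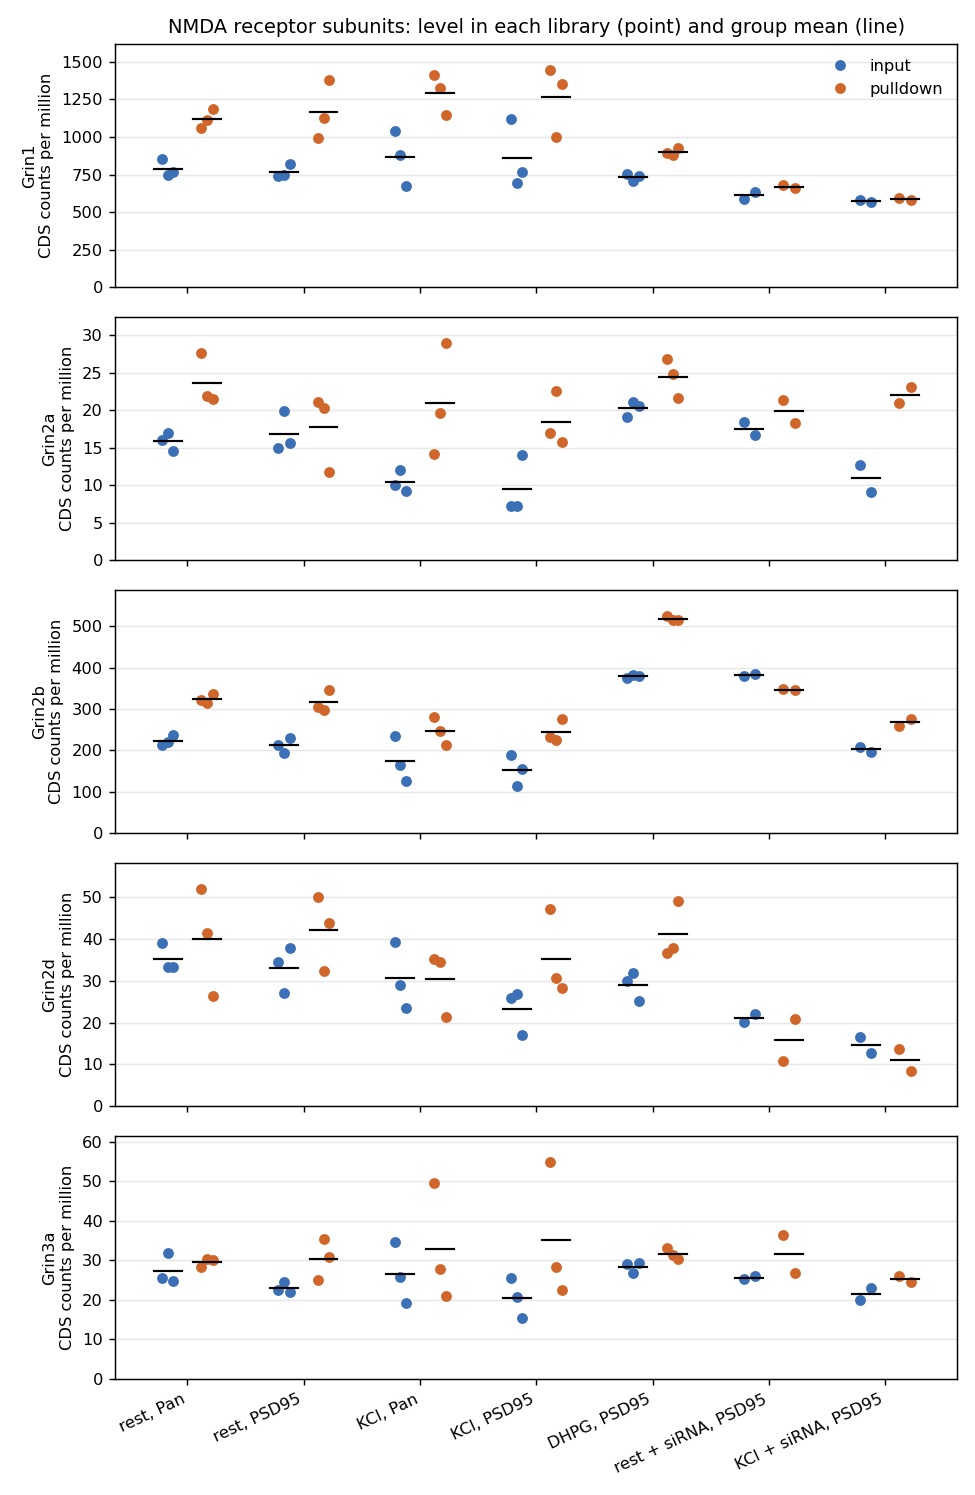
Footprint level of each subunit gene (y axis, CPM, linear from 0) in every library, by condition and bait (x axis). Points are libraries, blue for inputs and orange for pulldowns, and the line is the group mean; Grin2b stands highest in DHPG pulldowns, at 514 to 525 CPM, and Grin2d lowest in knockdown libraries, at 8.46 to 22.0 CPM.

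The first comparison asks whether the subunit mRNAs were translated near the labelled compartment, by setting each pulldown against its input. In 19 same-numbered pairs over all conditions, pulldown exceeded input in 19 pairs for Grin1, 18 for Grin2a, 17 for Grin2b, 12 for Grin2d and 18 for Grin3a. The median ratios were 1.33, 1.41, 1.43, 1.18 and 1.18. These pairs mix baits and experiments, and the untargeted Pan-TurboID is among them. How many of all genes had as many pairs with pulldown above input was not counted. Genes with a long CDS had higher pulldown folds, as given below.

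At rest with PSD95-TurboID, Grin1 and Grin2b rose in pulldowns and the other members did not pass the test. Grin1 was at 742, 744 and 817 CPM in inputs and at 991, 1128 and 1377 CPM in pulldowns. Every pulldown was above every input, a log2 change of 0.64 (SE 0.22, edgeR FDR 0.036). Grin2b was at 213, 193 and 229 CPM in inputs and at 305, 296 and 346 CPM in pulldowns. Again the groups did not overlap, and the log2 fold change was 0.61 (SE 0.22, edgeR FDR 0.046). Grin2a, Grin2d and Grin3a had log2 values of 0.13, 0.37 and 0.44. Thus 2 of 5 members were called, where 25% of the 13019 genes tested were called in either direction. Both calls were lost without replicate 2 or without replicate 3, at edgeR log2 values of 0.56 to 0.68 for Grin1 and 0.61 to 0.64 for Grin2b. Without replicate 3, 0 of 13213 genes were called by edgeR and 2821 were under an unadjusted p of 0.05.

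After KCl with PSD95-TurboID, 2 of 5 members were called, Grin2a and Grin2b, beside 12.6% of all genes. Grin2a was at 7.24, 7.22 and 14.1 CPM in inputs and at 17, 22.5 and 15.8 CPM in pulldowns. The groups did not overlap, and the log2 fold change was 0.97 (SE 0.31, edgeR FDR 0.043). Grin2b was at 189, 115 and 154 CPM in inputs and at 232, 226 and 276 CPM in pulldowns, all above the inputs. Its log2 fold change was 0.72 (SE 0.23, edgeR FDR 0.036). Grin1, Grin2d and Grin3a had log2 values of 0.60, 0.65 and 0.83 with edgeR FDRs of 0.069, 0.14 and 0.11. DESeq2 called 3 members, Grin1 among them (0.61, DESeq2 adjusted p 0.037), beside 2638 of 13019 genes. The edgeR call of Grin2a was lost without any 1 of the 3 replicates, at log2 values of 0.62 to 1.48, and 3 of 13213 genes were called without replicate 3. That of Grin2b was lost without replicate 2 or 3 (0.60 and 0.61) but held without replicate 1, whose pulldown had the low Dlg4 level, and Grin1 was called there too. With the replicate number within each treatment as a block, 5 of 5 members were called (edgeR, 30.3% of all genes). The blocked count in resting neurons stayed at 2 (38.6% of all genes).

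With Pan-TurboID the log2 values of Grin1 and Grin2b were between 0.55 and 0.63 in both states. At rest 0 of 5 members were called by edgeR and 3 were under an unadjusted p of 0.05, where 9.62% of all genes were called by edgeR. DESeq2 called 1 of 5, beside 2137 of 13019 genes. Grin1, Grin2a, Grin2b, Grin2d and Grin3a had log2 values of 0.55, 0.62, 0.59, 0.22 and 0.16. After KCl, Grin2a was called, 1 of 5 beside 8.79% of all genes. It was at 9.96, 12 and 9.24 CPM in inputs and at 14.1, 19.7 and 29.0 CPM in pulldowns, without overlap, and the log2 fold change was 1.05 (SE 0.31, edgeR FDR 0.041). Grin2d and Grin3a had values of 0.06 and 0.39. The call of Grin2a was lost without any 1 of the 3 replicates, at log2 values of 0.68 to 1.23. No gene was called by edgeR without replicate 2 or without replicate 3, where 2804 and 2171 genes were under an unadjusted p of 0.05. With the replicate block, 2 members were called at rest, Grin1 and Grin2b (28.1% of all genes), and 3 after KCl, Grin1, Grin2a and Grin2b (27.9%).

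The difference between the baits was tested directly. For PSD95-TurboID beyond Pan-TurboID, the log2 differences were 0.03 (SE 0.22) for Grin1, −0.28 (SE 0.31) for Grin2a, 0.10 (SE 0.22) for Grin2b, 0.37 (SE 0.29) for Grin2d and 0.36 (SE 0.34) for Grin3a. None of the 5 members was called by edgeR or DESeq2, and 0 were under an unadjusted p of 0.05. Only 1 of 13019 genes was called by edgeR, Dlg4 (0.00768%), with 169 genes under an unadjusted p of 0.05. The change of the PSD95-TurboID enrichment with KCl was also called for 0 of 5 members, and for 0.0% of genes by edgeR (236 genes under an unadjusted p of 0.05). Grin2a had the largest estimate, 0.83 (SE 0.44). Differences of the sizes given here were not detectable at this depth and number of libraries.

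The pulldown fold was related to CDS length across all genes, and all 5 members have long coding sequences. Across the genes tested, Spearman's rho between log2 fold and CDS length ranged from 0.52 to 0.62 in the 7 pulldown comparisons, as a description over genes that share libraries. Genes with a CDS of 3000 to 5000 nt had a median log2 fold of 0.45 at rest and 0.47 after KCl with PSD95-TurboID, while all genes had −0.05 and −0.02. Among those genes, which do not include Grin1 with its 2880 nt, Grin2b stood at percentile 61.3 at rest, and Grin2a and Grin2b at percentiles 78.9 and 66.9 after KCl. When the trend with CDS length was removed from each library, 0 of 5 members were called in each of the 4 comparisons of the KCl experiment. The shares of all genes still called were 12.2% and 4.07% with PSD95-TurboID at rest and after KCl, and 1.28% and 1.4% with Pan-TurboID. The log2 values were then 0.33 for Grin1 and 0.18 for Grin2b at rest, and 0.56 for Grin2a and 0.25 for Grin2b after KCl, with PSD95-TurboID.

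**Figure D2:**
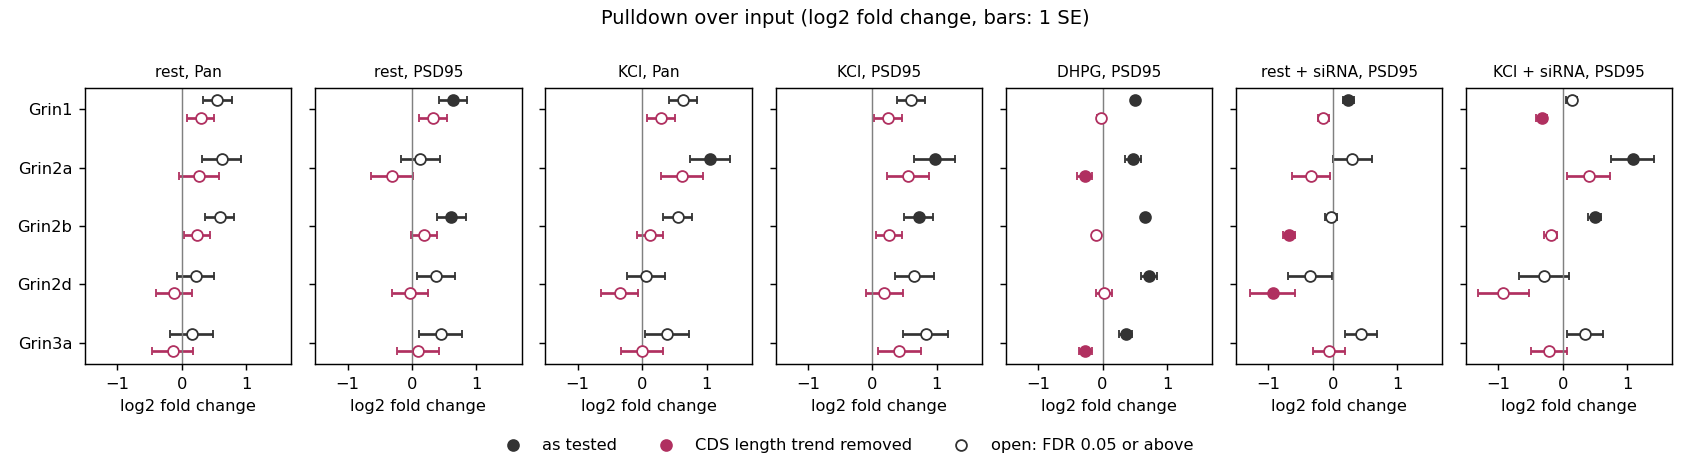
Log2 fold change of pulldown over input (x axis) for each subunit gene (y axis) in the 7 combinations of condition and bait, as tested (black) and with the trend in CDS length removed (red). Bars are 1 SE and filled points passed FDR 0.05 in edgeR; the 5 filled black points under DHPG, 0.36 to 0.72, lie near or below 0 in red.

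After DHPG, all 5 members rose in pulldowns, but so many genes moved that 79.8% of 12273 were called. Grin1 was at 753, 705 and 739 CPM in inputs and at 891, 883 and 924 CPM in pulldowns, a log2 change of 0.51 (SE 0.05, edgeR FDR 6.0e-08). Grin2b was at 374, 383 and 381 CPM in inputs and at 525, 514 and 516 CPM in pulldowns, a log2 change of 0.66 (SE 0.05, edgeR FDR 2.5e-09). Replicates of this experiment lay closer together than those of the KCl experiment, and no pulldown of either gene reached down to an input. Grin2a, Grin2d and Grin3a had log2 values of 0.47, 0.72 and 0.36, with edgeR FDRs of 0.0016, 3.4e-05 and 0.0036. Genes of 3000 to 5000 nt had a median of 0.82, above each of these values. With the length trend removed, Grin2a (−0.28) and Grin3a (−0.27) were called as lower in pulldowns, 2 of 5 beside 68.3% of all genes.

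In neurons with eIF4G2 siRNA, the pulldown values differed between rest and KCl for Grin2b. The targeted gene, Eif4g2, was at 284 to 337 CPM in knockdown inputs. Without siRNA it was at 538 to 772 CPM in PSD95-TurboID inputs of the KCl experiment and at 444 to 457 CPM in DHPG inputs. At rest Grin1 alone was called, with inputs at 588 and 635 CPM and pulldowns at 680 and 660 CPM and a log2 change of 0.24 (SE 0.08, edgeR FDR 0.017), 1 of 5 beside 45.5% of genes. Grin2b was at 380 and 385 CPM in inputs and at 348 and 345 CPM in pulldowns at rest, both pulldowns being below both inputs on this scale. After KCl it was at 209 and 197 CPM in inputs and at 258 and 277 CPM in pulldowns, the opposite order. Its log2 values were −0.03 (SE 0.09) and 0.50 (SE 0.10, edgeR FDR 0.00021), and the difference between them was 0.53 (SE 0.14, edgeR FDR 0.028). Of all genes, 3.77% were called for that difference. The comparison of this fold between the knockdown states was not among those planned. Grin2a was also called after KCl, at 12.7 and 9.15 CPM in inputs and 21 and 23.0 CPM in pulldowns, a log2 change of 1.08 (SE 0.33, edgeR FDR 0.0091). These were 2 of 5 members beside 48.8% of genes.

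With either replicate of the knockdown experiment left out, the lone library was assumed to vary like the groups without siRNA. Such fits cannot decide whether a call depends on a replicate. The log2 values were then 0.13 and 0.29 for Grin1 at rest, 0.58 and 0.39 for Grin2b and 1.41 and 0.81 for Grin2a after KCl, and 0.67 and 0.43 for the difference of Grin2b between the states. In these fits 35 to 65 genes were called for pulldown over input, and 0 for the difference. With the length trend removed, Grin1 at rest turned to −0.14 and Grin2b after KCl to −0.19, neither of them called, while the difference of Grin2b between the states was 0.49 (edgeR FDR 0.045). The called values at rest were then Grin2b (−0.68) and Grin2d (−0.93), 2 of 5 beside 33.1% of genes. After KCl it was Grin1 alone (−0.33), beside 35.5%.

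The footprints gained in pulldowns did not lie evenly along the coding sequences. Exon segments were assigned to the 5′ or 3′ part of the CDS by whether their centre lay before or after its midpoint. Pulldown over input in the 12 pairs of the KCl experiment was higher in the 3′ than in the 5′ part for all 5 genes. For Grin1 the log2 ratio was 0.28 ± 0.17 (SD, n = 12) in the 5′ part and 0.82 ± 0.19 (SD, n = 12) in the 3′ part. The difference was 0.54 ± 0.12 (SD, n = 12), in the same direction in 12 of 12 pairs (exact sign-flip test, p = 0.000488, the smallest 12 pairs allow). The 12 pairs carry 3 replicate numbers, whose samples the study processed together. The sign-flip tests over these pairs, also those of the 5′ UTR share, treat the pairs as independent, and flipping by number could not give a p below 0.25. For Grin2b the parts were at 0.23 ± 0.24 and 0.92 ± 0.24 (SD, n = 12), and the difference of 0.69 was positive in 12 of 12 pairs (exact sign-flip p = 0.000488). The differences were 0.87 for Grin2a (11 of 12 pairs), 0.41 for Grin2d (10 of 12) and 1.06 for Grin3a (11 of 12). Adjusted over the 5 genes, exact p-values ranged from 0.0012 to 0.0166. That of Grin2d was not under 0.05 without replicate 1 or without replicate 3 (unadjusted exact p = 0.0547 and 0.109), and that of Grin2a not without replicate 2 (exact p = 0.0547).

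This gradient was not particular to the receptor. Among 8535 genes with enough counts in both parts, the median difference was 0.92 and 93.5% were above 0, and the members stood at percentiles 28.4 (Grin1), 47.0 (Grin2a), 37.0 (Grin2b), 21.7 (Grin2d) and 57.3 (Grin3a) of them. In DHPG pairs Grin2b was at −0.50 ± 0.06 (SD, n = 3) in the 5′ part and at 1.08 ± 0.05 (SD, n = 3) in the 3′ part, so its pulldown was below its input in the first and above it in the second. The same split held in the 4 knockdown pairs, −0.69 ± 0.28 against 0.76 ± 0.35 (SD, n = 4). The median differences of all genes were 1.14 and 1.06 in these experiments, against 1.58 and 1.44 for Grin2b. Grin1 had 0.37 in DHPG pairs and −0.20 ± 0.51 (SD, n = 4) in knockdown pairs, with 2 of 4 pairs in each direction.

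**Figure D3:**
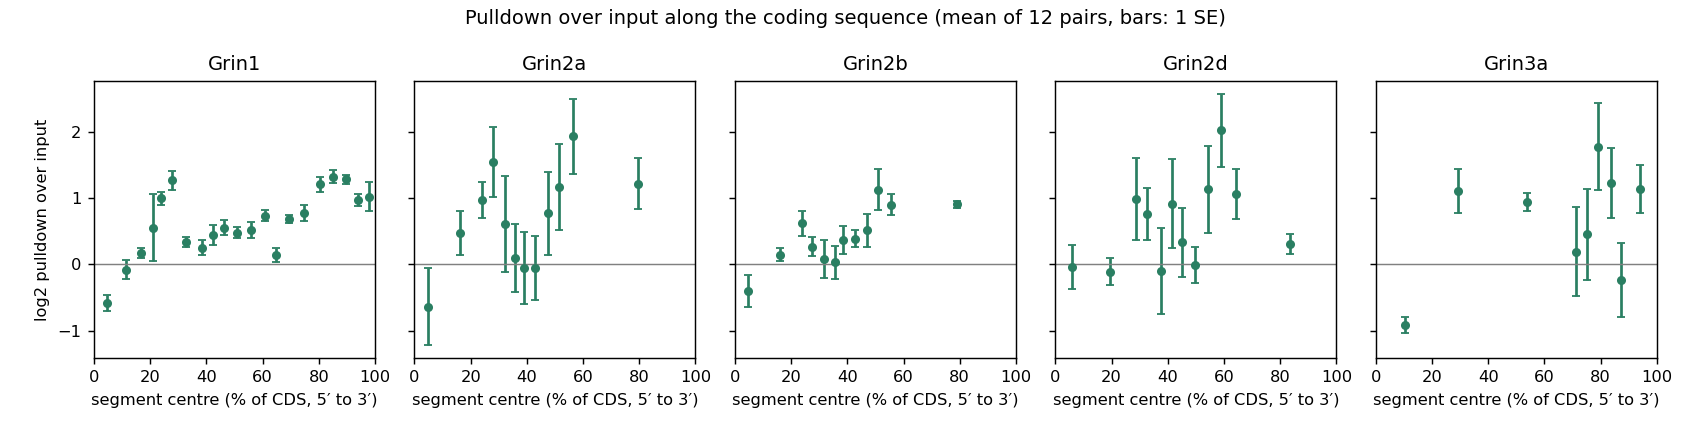
Log2 pulldown over input (y axis) for each coding exon segment of the subunit genes, at the segment's centre along the CDS (x axis, percent from the 5′ end), as the mean of 12 pairs of the KCl experiment with bars of 1 SE. The first coding segment lies below 0 or near it in each gene, and most later segments lie above it.

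A part of the footprints of each gene lay upstream of the start codon. The authors counted footprint 5′ ends without an offset, so a ribosome on the start codon is counted in the last bases of the 5′ UTR. In the 12 inputs of the KCl experiment, the 5′ UTR took 30.0% ± 10.6 (SD, n = 12) of the 5′ UTR and CDS counts of Grin2b, 19.1% ± 11.6 of Grin2a, 13.5% ± 4.42 of Grin1, 10.0% ± 5.69 of Grin3a and 1.13% ± 1.30 of Grin2d (SD, n = 12 each). Grin2b stood at percentile 62.9 and Grin1 at 30.9 among 8153 genes, whose median was 22.5%.

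Pulldowns held less of this signal. The share fell to 10.1% ± 4.81 (SD, n = 12) for Grin2b and 4.46% ± 3.03 (SD, n = 12) for Grin1, lower than in the same-numbered input in 12 of 12 pairs each (exact sign-flip p = 0.000488, adjusted over 5 genes 0.00122). It fell to 8.80% for Grin2a (11 of 12 pairs, exact p = 0.000977) and to 2.45% for Grin3a (9 of 12 pairs, exact p = 0.00391), which did not pass without replicate 3 (exact p = 0.0625). For Grin2d it was 0.555%, which did not pass the test (exact p = 0.18). The mean share was lower in pulldowns for 98% of the 8153 genes, with a median of 9.91%. In the DHPG and knockdown pairs, Grin2b was lower in 3 of 3 and 4 of 4 pairs, where the smallest exact p-values are 0.25 and 0.125.

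**Figure D4:**
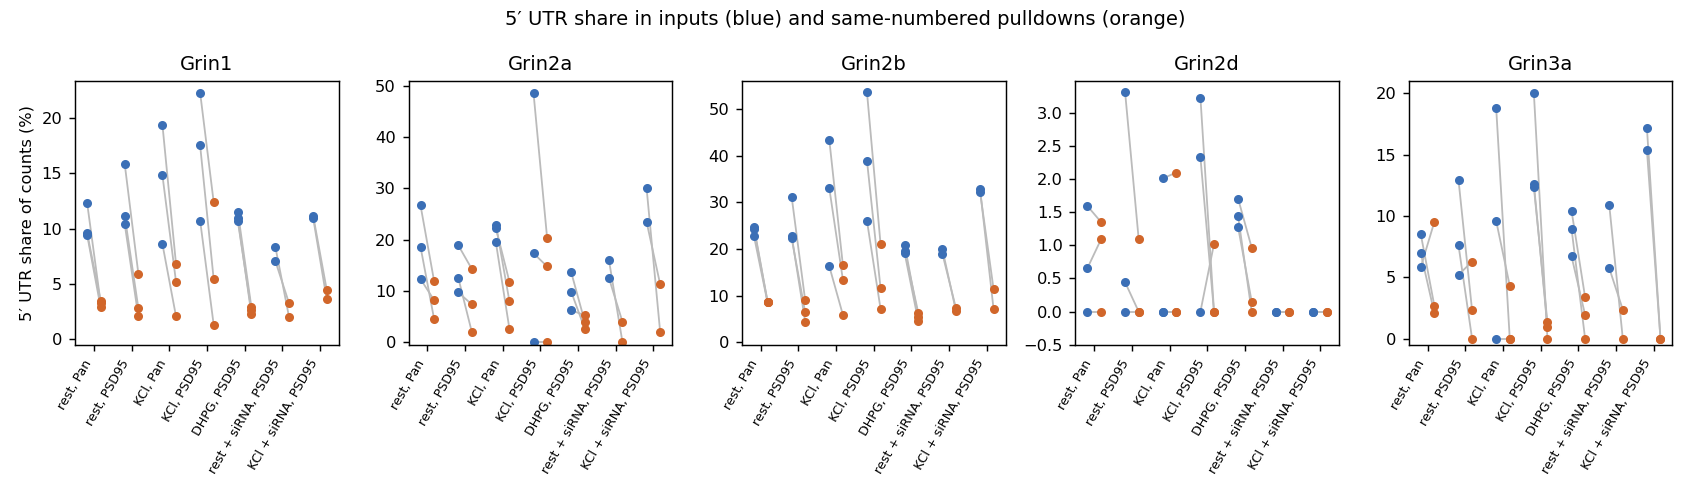
Share of a gene's 5′ UTR and CDS counts that lay in the 5′ UTR (y axis, percent) in inputs (blue) and same-numbered pulldowns (orange), joined by a grey line for each pair, by condition and bait (x axis). Grin2b inputs lie between 16.3% and 53.6% and each joined pulldown lies lower; Grin2d has almost no 5′ UTR counts.

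The 5′ UTR signal of Grin2b was not confined to the start codon. Its 746-nt 5′ UTR lies in 3 exon segments. The 18 nt next to the start codon held 4.17 counts per nt summed over 12 inputs, the 467-nt segment upstream 6.39 and the 261-nt segment farthest upstream 10.1, while the CDS held 2.99. In pulldowns, these segments held 5.28, 3.01 and 3.89 counts per nt and the CDS 4.82, so that the 2 upstream segments lay below the CDS while the farthest one stayed above the middle one. For Grin1, whose 209-nt 5′ UTR lies in 1 segment, inputs held 42.8 counts per nt against 19.6 in the CDS, and pulldowns 20.8 against 30.6. These sums are raw counts, so only the ratio within a fraction is comparable.

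The upstream regions differ in their ATG triplets. These are shown for Grin2b, whose farthest upstream segment held 10.1 counts per nt in inputs against 2.99 in its CDS. The farthest segment of Grin2a held 0.960 against 0.222, but on 97 counts. The 5′ UTR of Grin2b holds 9 ATGs, 1 of which opens a frame that runs past the start codon. Those of Grin2a, Grin2d and Grin3a hold 7, 2 and 3, and that of Grin1 holds 0. Of 9303 genes with at least 200 nt of 5′ UTR, 67.7% hold an ATG in the last 200 nt. In that window, Grin2b had 4, Grin2a 3, Grin3a 1 and Grin1 and Grin2d 0 each. The windows below, on the coding strand of mm10, have the upstream ATG in capitals, at 703, 467 and 70 nt before the start codon. They lie at chr6:136173065-136173094, chr6:136171847-136171876 and chr6:136171450-136171479, and only the last of these frames overlaps the CDS.
Grin2b upstream ATG, 703 nt: gggcttggctctATGgagaagcgcttctcg
Grin2b upstream ATG, 467 nt: gacgctttgggaATGaccacgctccacgga
Grin2b upstream ATG, 70 nt: gatattcccaacATGcgctctcccttaatc
A triplet in this list is a match of letters, and no reading frame was assigned to the footprints. The sequence CGCGGC, a motif that the study examined for eIF4G2 binding, was searched on the coding strand alone. It was found 1 time in the 5′ UTR of Grin2a and 0 times in those of the other members. In the last 200 nt it was found in 0 of 5 members and in 15.1% of the 9303 genes.

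The second comparison asks how depolarization changed the footprint level of the subunits. The labels give silencing for the depolarized groups and not for the resting groups. KCl and the blockers used with it therefore cannot be told apart. In inputs of both baits, Grin2a fell and the other members did not pass the test, 1 of 5 beside 15.4% of genes. Grin2a was at 16.05, 16.9, 14.6, 15, 19.8 and 15.6 CPM at rest and at 9.96, 12, 9.24, 7.24, 7.22 and 14.1 CPM after KCl. Every depolarized library was below every resting library, and the log2 fold change was −0.66 (SE 0.22, edgeR FDR 0.040). The call was lost without any 1 of the 3 replicates (−0.47 to −0.86) and within the inputs of either bait alone (−0.77 and −0.55). Grin2b was at 213, 220, 236, 213, 193 and 229 CPM at rest and at 234, 164, 126, 189, 115 and 154 CPM after KCl, with the highest depolarized library within the resting range. Its log2 value was −0.37 (SE 0.16, edgeR FDR 0.12), and without replicate 1, the shallow libraries after KCl, it was −0.67 (SE 0.16, edgeR FDR 0.0048). Grin1, Grin2d and Grin3a had log2 values of 0.19, −0.33 and −0.09. With the length trend removed no member was called in inputs, and Grin2a was at −0.42.

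In pulldowns of the KCl experiment no member passed the test for KCl with either bait. With PSD95-TurboID, 0 of 5 were called by edgeR or DESeq2 and 0 were under an unadjusted p of 0.05, where 6.59% of genes were called by edgeR. With Pan-TurboID, 0 of 5 were called by edgeR or DESeq2, 0 were under an unadjusted p of 0.05, and 5.03% of genes were called by edgeR. Grin2b was at 305, 296 and 346 CPM at rest and at 232, 226 and 276 CPM after KCl in PSD95-TurboID pulldowns, and at 321, 314 and 337 CPM and 280, 247 and 213 CPM in Pan-TurboID pulldowns. Every depolarized pulldown lay below every resting one of its bait, but how many of all genes separate in this way was not counted. The log2 values of Grin2b were −0.34 (SE 0.22) and −0.33 (SE 0.22). In the knockdown neurons Grin2b fell with KCl in inputs, from 380 and 385 CPM to 209 and 197 CPM, a log2 change of −0.90 (SE 0.10, edgeR FDR 1.6e-07), 1 of 5 beside 19.3% of genes. It also fell in their pulldowns, by 0.37 on the log2 scale (SE 0.10, edgeR FDR 0.0071), 1 of 5 beside 22.2%. The KCl response in inputs did not differ detectably with knockdown. The difference for Grin2b was −0.44 (SE 0.28), and 0 of 5 members were called or under an unadjusted p of 0.05 in edgeR. Of 13197 genes, 1 was called (0.00758%) and 369 were under an unadjusted p of 0.05.

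The 5′ UTR counts were tested with the CDS library sizes. Grin2d had too few of them to pass the filter. For KCl in inputs, 0 of 4 members were called by edgeR and 0 were under an unadjusted p of 0.05, beside 0.442% of 10186 genes, all of which rose. For PSD95-TurboID pulldowns the counts were 0 and 0 of 4, beside 0.275% of genes. The 5′ UTR share of Grin2b in inputs was 24.7% ± 3.32 (SD, n = 6) at rest and 35.2% ± 13.1 (SD, n = 6) after KCl, which did not pass (exact permutation p = 0.0866, adjusted over 5 genes 0.292). The depolarized libraries of replicate 1 had the lowest shares, 16.3% and 26.0%. Without replicate 1 the groups did not overlap, at 25.4% and 42.2% (exact permutation p = 0.0286, the smallest 4 against 4 allow, adjusted 0.143). The share of all genes that separate in this way was not counted. Permutation tests over the inputs of both baits treat libraries of the same replicate number as independent. This holds also for the Grin2a to Grin2b ratio above and the Grin1 exons below.

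**Figure D5:**
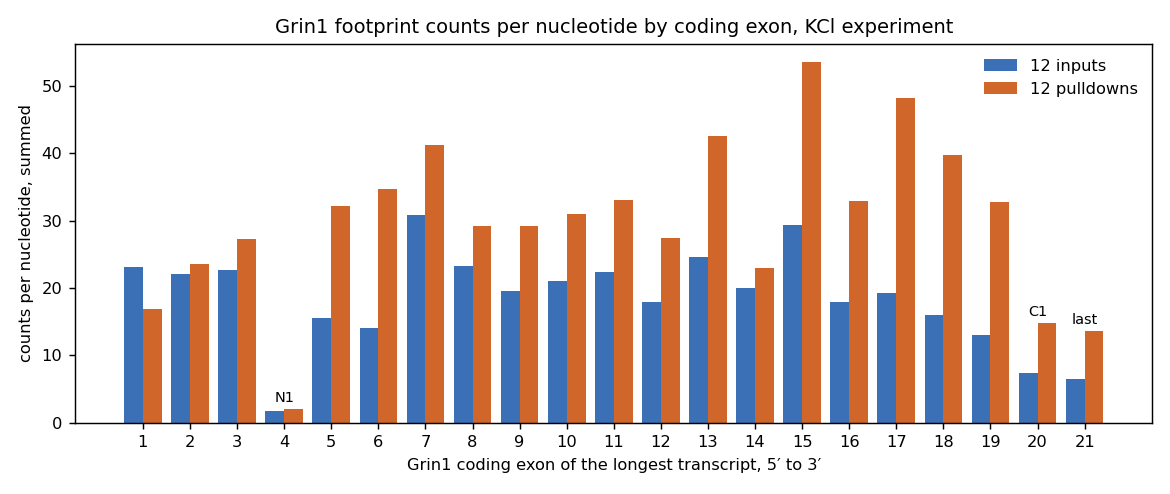
Grin1 footprint counts per nucleotide (y axis, raw counts summed over 12 libraries, not scaled for depth) in each of the 21 coding exons of the longest transcript (x axis), for inputs (blue) and pulldowns (orange) of the KCl experiment. The N1 exon holds 1.76 and 2.06 counts per nt, far below its neighbours, and the C1 and last coding exons lie below the constitutive exons in both fractions.

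Grin1 is alternatively spliced, and footprints on its cassette exons give a view of which forms were translated. The 63-nt N1 exon and the 111-nt C1 exon are each present in 4 of 8 annotated transcripts, as is this form of the last coding exon. In inputs the N1 exon held 9.52% ± 7.71 (SD, n = 6) of the density of the constitutive exons at rest and 4.07% ± 2.65 (SD, n = 6) after KCl. The C1 exon held 30.6% ± 7.44 and 38.5% ± 10.3 (SD, n = 6 each), and the last coding exon 28.7% ± 10.1 and 33.5% ± 10.7 (SD, n = 6 each). None of these 3 differences passed the exact permutation test (p = 0.162, 0.16 and 0.429, adjusted over the 3 segments 0.244, 0.244 and 0.429). The N1 value rests on 111 counts in 12 inputs. A constitutive exon of 84 nt held 19.5 counts per nt.

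DHPG and knockdown libraries were also set against the KCl experiment. They are separate experiments, so experiment and treatment cannot be told apart, and these comparisons share the PSD95-TurboID libraries used above. Against resting inputs, DHPG inputs were higher for Grin2b, 374 to 383 CPM against 193 to 229 CPM, a log2 change of 0.94 (SE 0.09, edgeR FDR 2.9e-06), 1 of 5 members beside 32.8% of genes. In pulldowns Grin2b was higher by 0.95 (SE 0.09, edgeR FDR 9.3e-07) and Grin2a by 0.64 (SE 0.20, edgeR FDR 0.016), 2 of 5 beside 47.7%. The call of Grin2a was lost without replicate 1 or without replicate 3, at log2 values of 0.67 and 0.55. Fos was lower in DHPG inputs than in resting inputs (−2.98, SE 0.43, edgeR FDR 0.00063), and of 5 activity genes 3 were lower and 1 higher. The summed level of 8 astrocyte markers was 236 to 263 CPM in the DHPG libraries and 646 to 1459 CPM in the KCl experiment, and that of 6 vascular and fibroblast markers 4.04 to 16.6 CPM and 34.9 to 406 CPM. In DHPG against resting inputs, 3 of 6 pan-neuronal markers were higher and 0 lower, and in pulldowns 2 were higher and 4 lower. Of 6 excitatory neuron markers, 2 were higher and 1 lower in inputs. Of 7 tested oligodendrocyte lineage markers, 5 were lower and 0 higher in inputs. The part of these markers in the result was not tested.

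Against neurons without siRNA, Grin2b was higher in resting knockdown inputs, 380 and 385 CPM against 193 to 229 CPM, at a log2 change of 0.88 (SE 0.20, edgeR FDR 0.010), 1 of 5 members beside 3.9% of genes. After KCl 0 of 5 were called in inputs by edgeR or DESeq2, with 2, Grin1 and Grin2b, under an unadjusted p of 0.05, beside 5.31%. Grin1 and Grin2d were uncalled in inputs, but each knockdown input lay below each PSD95-TurboID input without siRNA of its state. Grin1 was at 588 and 635 CPM against 742 to 817 CPM at rest. After KCl it was at 566 and 581 CPM against 692 to 1118 CPM. Mean Grin2d was 21.05 against 33.2 CPM at rest and 14.6 against 23.3 CPM after KCl. How many of all genes separate in this way was not counted. In pulldowns Grin1 and Grin2d were called as lower. At rest Grin2d was at 10.8 and 20.9 CPM against 50.0, 32.4 and 43.9 CPM, a log2 change of −1.39 (SE 0.35, edgeR FDR 0.013). Grin1 was at 680 and 660 CPM against 991 to 1377 CPM, at a log2 change of −0.75 (SE 0.23, edgeR FDR 0.037). These were 2 of 5 members beside 9.15% of genes. After KCl the log2 fold changes were −1.58 (SE 0.37, edgeR FDR 0.0050) for Grin2d and −1.05 (SE 0.23, edgeR FDR 0.0031) for Grin1, 2 of 5 beside 18.9%. With either knockdown replicate left out, a lone library remained in each group, so these fits cannot decide whether a call depends on a replicate. The log2 values were then 0.89 and 0.88 for Grin2b in resting inputs, −0.97 and −1.88 for Grin2d and −0.79 and −0.71 for Grin1 in resting pulldowns, and −1.99 and −1.29 for Grin2d and −1.06 and −1.04 for Grin1 in depolarized pulldowns. The 9 inhibitory neuron markers summed to 711 to 1013 CPM in knockdown libraries and to 1619 to 3134 CPM in the KCl experiment. Of 6 pan-neuronal markers, 3 were lower in knockdown pulldowns at rest, with Snap25 (−1.23, SE 0.34, edgeR FDR 0.025) lowest, and 3 after KCl, with Syt1 (−1.45, SE 0.31, edgeR FDR 0.0031) lowest. Their summed level overlapped between knockdown and other PSD95-TurboID pulldowns at rest, 6472 to 6612 CPM against 6011 to 6787 CPM, and was lower after KCl, 4682 to 4733 CPM against 4973 to 5565 CPM. Of 6 excitatory neuron markers, the vesicular glutamate transporter gene Slc17a7 was lower in all 4 comparisons (−2.23 to −2.79) and Slc17a6 higher (0.84 to 1.56). Microglial markers summed to 6.40 to 24.8 CPM in knockdown libraries and to at most 5.73 CPM in PSD95-TurboID libraries of the KCl experiment. The part of these markers in the Grin2b, Grin2d and Grin1 values was not tested.

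Other genes of the receptor's setting were counted by list. Of 24 genes listed for scaffold and signalling proteins of the receptor's complex, 7 rose and 0 fell in PSD95-TurboID pulldowns at rest. The list median was 0.29, and 25% of all genes were called in either direction. After KCl 7 rose and 0 fell, with a median of 0.53, beside 12.6% of all genes. Dlg4, whose footprints can also come from the bait's own PSD95 sequence, was the highest in both, at 3.70 (SE 0.66, edgeR FDR 0.0034) and 4.26 (SE 0.68, edgeR FDR 0.0034). With Pan-TurboID 2 rose and 0 fell at rest (9.62% of all genes called), where the tyrosine phosphatase gene Ptpn5 had the largest rise, 0.96 (SE 0.25, edgeR FDR 0.025). As many rose after KCl (8.79% of all genes), where the CaMKII subunit gene Camk2a led with 1.08 (SE 0.27, edgeR FDR 0.024). After DHPG 19 of 24 rose and 4 fell, beside 79.8% of all genes called, with Dlg3, encoding SAP102, lowest at −1.22 (SE 0.09, edgeR FDR 7.4e-10). The trend with CDS length was not removed from these list values. With PSD95-TurboID, genes of 3000 to 5000 nt had a median of 0.45 at rest, 0.47 after KCl and 0.82 after DHPG.

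With KCl in inputs, 1 of these 24 rose, Rasgrf1 (0.86, SE 0.25, edgeR FDR 0.018), and 4 fell, Dlgap3 most, by 1.66 on the log2 scale (SE 0.19, edgeR FDR 8.4e-07). The list median was −0.28, where all genes had −0.01 and 15.4% of them were called in either direction. Of 9 genes for transport of the receptor, 2 fell and 0 rose, and Apba1, which encodes the adaptor Mint1, was at −2.51 (SE 0.16, edgeR FDR 2.7e-11). In PSD95-TurboID pulldowns at rest 2 of these 9 rose and 2 fell, beside 25% of all genes, from the exocyst gene Exoc4 at 1.14 (SE 0.29, edgeR FDR 0.0087) to Lin7a at −1.32 (SE 0.26, edgeR FDR 0.0034). Of 7 tested genes for the co-agonists glycine and D-serine, 2 rose with KCl in inputs, beside the same 15.4%, led by Psph, an enzyme of serine synthesis, at 1.40 (SE 0.20, edgeR FDR 2.2e-05). In PSD95-TurboID pulldowns at rest 2 of these 7 rose and 0 fell, beside 25% of all genes. The glycine transporter gene Slc6a9 rose most there, by 1.10 (SE 0.32, edgeR FDR 0.016). With untargeted Pan-TurboID at rest Slc6a9 rose by 1.04 (SE 0.32, edgeR FDR 0.041) and Exoc4 by 1.10 (SE 0.29, edgeR FDR 0.027). They were the only called genes of their lists with that bait at rest, beside 9.62% of all genes.

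The genes whose group means were most like those of each member were found among 7707 genes by Pearson's r of log2 CPM over the 14 groups. These groups share inputs, experiments and depth, so r is a description. For Grin1 they were Syp (0.97), which encodes synaptophysin, Gabra3 (0.97), a GABA-A receptor subunit, and Clstn3 (0.96), calsyntenin-3, for Grin2a Stim2 (0.93), Cyld (0.92) and Atad2b (0.90), and for Grin2b the kinase gene Gsk3b (0.96), Plppr1 (0.96) and the glutamate receptor gene Grm3 (0.96). For Grin2d they included Sorcs2 (0.97) and the synapsin gene Syn1 (0.97), and for Grin3a Tmem184c (0.91), Slc8a1 (0.90) and Tmem246 (0.90). Among the members themselves, r was highest between Grin2a and Grin2b (0.81) and lowest between Grin1 and Grin2b (−0.01).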

How the data were processed

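Footprints from 38 libraries of primary mouse cortical cultures were used. The authors trimmed reads with Rfastp, removed UMIs, mapped to mm10 with Rsubread, removed rRNA and duplicate reads, and counted 5′ ends of reads with plastid, without offset, over the CDS, 5′ UTR and 3′ UTR of each transcript; the deposited values are whole-number counts. The longest transcript per gene, with 5′ UTR, CDS and 3′ UTR together, was kept (22478 genes). Transcript identifiers were named through the annotation of the same build. Group means were fitted with edgeR 4.0.16 (TMM, filterByExpr, robust quasi-likelihood F test, Benjamini-Hochberg over all genes tested, FDR 0.05) in R 4.3.3, separately for the KCl experiment (24 libraries), DHPG (6) and knockdown (8), and jointly for comparisons between experiments. Scripts were tested on simulated data. Exact tests were two-sided. The difference between CDS parts used a pseudocount of 0.5 counts, log2 levels for similar genes one of 0.5 CPM, and levels per kb used CDS length.

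Alternatives were RLE scaling, CDS totals, no filter, the likelihood ratio test, DESeq2 1.42.0, the transcript with the highest count, removal of the CDS length trend (loess, span 0.5), a replicate block and leaving out each replicate. The study's methods state that resting and activated samples of a biological replicate were processed together. Same-numbered input and pulldown deviated together in the KCl experiment (r 0.28 to 0.63) but not with DHPG or knockdown (r −0.17 to 0.03), and resting and depolarized libraries of a number had r of −0.20 to 0.35. No replicate pair agreed within sampling noise. Some library descriptions call DHPG and knockdown samples cytosol, and the virus field was used. Members and lists were chosen with earlier results of these data known. Named were the 5 members, Dlg4, Eif4g2 and activity genes as checks, the largest called change in each direction of each list, and 3 similar genes per member, 1 of which is not reported here.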

Additional observations from a re-analysis of the deposited data

Results flagged for a closer look

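Grin2b in neurons with eIF4G2 siRNA is listed because its pulldown over input differed between the resting and the depolarized state, by 0.53 on the log2 scale (SE 0.14, edgeR FDR 0.028, interaction of state and fraction), with 2 libraries in each of 4 groups. This comparison was not among those planned. In CPM, the pulldowns were below the inputs in 2 of 2 resting pairs and above them in 2 of 2 depolarized pairs. The edgeR fold at rest, given above, was smaller than its SE, and its sign changed with RLE scaling. The difference rests on the same libraries as the KCl changes of Grin2b in knockdown inputs and pulldowns. In the KCl experiment without siRNA the matching difference with PSD95-TurboID was 0.11 (SE 0.32) and was not called. The values with and without siRNA were not tested against each other. With either knockdown replicate left out, the difference was 0.67 and 0.43. A lone library has no spread of its own, so these fits cannot decide whether the call depends on a replicate. With the CDS length trend removed it was 0.49 (edgeR FDR 0.045), the 2 folds being −0.68 at rest and −0.19 after KCl.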

How the results depend on the processing

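Over 1210 recomputed values of single members, 1059 kept their direction and their side of the FDR, 66 were no longer called, 23 became called and 62 changed sign, 6 of which were called values; over 247 recomputed counts of called members and tests, 191 stayed, 44 were lower and 12 higher. Grin2a, Grin2d and Grin3a had the lowest counts of the members, and the knockdown groups had 2 libraries each. Which setting or property of the data limits the results most was not tested.

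With the CDS length trend removed, the count of called members went to 0 in the pulldown comparisons of PSD95-TurboID at rest and after KCl and of Pan-TurboID after KCl, and to 0 for KCl in inputs. It went to 2 (from 5) for DHPG pulldowns, 2 for DHPG against resting inputs, 1 for DHPG against resting pulldowns, 2 and 1 for knockdown pulldowns at rest and after KCl, and 1 for depolarized inputs with against without knockdown. Called values turned to −0.028, −0.28, −0.10 and −0.27 for Grin1, Grin2a, Grin2b and Grin3a with DHPG, to −0.14 for Grin1 in resting and −0.19 for Grin2b in depolarized knockdown pulldowns. Uncalled values that turned were, for PSD95-TurboID at rest, Grin2a −0.31 and Grin2d −0.029; for Pan-TurboID, Grin2d −0.12 and Grin3a −0.14 at rest and Grin2d −0.35 and Grin3a −0.0039 after KCl; and for PSD95-TurboID beyond Pan-TurboID, Grin1 −0.0090. With KCl they were Grin3a 0.15 in inputs, Grin2d 0.0062 in PSD95-TurboID pulldowns, Grin2a 0.020 in Pan-TurboID pulldowns and Grin1 0.059 in knockdown inputs, and for DHPG against resting inputs Grin2d 0.039. In knockdown pulldowns they were Grin2a −0.34 and Grin3a −0.062 at rest and Grin1 −0.33 and Grin3a −0.21 after KCl. For knockdown against none they were Grin2a −0.011 in resting inputs, Grin2a −0.064 and Grin3a −0.12 in depolarized inputs, Grin2a −0.031, Grin2b −0.055 and Grin3a −0.050 in resting pulldowns, and Grin2a −0.19 and Grin2b −0.26 in depolarized pulldowns.

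Without a filter the counts were 1 for PSD95-TurboID pulldowns at rest and 1 after KCl, 0 for Pan-TurboID after KCl, 0 for KCl in inputs and 0 for resting knockdown pulldowns. With CDS totals alone they were 1 for PSD95-TurboID and 0 for Pan-TurboID pulldowns after KCl, 2 for KCl in inputs, 3 for DHPG pulldowns and 0 for resting knockdown pulldowns, and Grin1 turned to −0.068 for DHPG against resting inputs and Grin2d to −0.030 for DHPG against resting pulldowns. DESeq2 gave 1 for Pan-TurboID at rest, 2 after KCl, 3 for PSD95-TurboID after KCl (Grin1 added) and 2 for DHPG against resting inputs, and RLE scaling 2 for the last. In the 3 pulldown comparisons named for DESeq2, it called 2137, 2252 and 2638 of 13019 genes. Grin2b in resting knockdown pulldowns was 0.0054 with RLE scaling and 0.0055 with DESeq2. The replicate block gave 5 members for PSD95-TurboID after KCl and 2 and 3 for Pan-TurboID at rest and after KCl, and changed no other call. With the inputs of either bait alone, 0 members were called for KCl in inputs. The cause of these differences was not tested.

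Leaving out each replicate in turn gave 0 to 2 called members for PSD95-TurboID pulldowns in each state. It gave 0 to 1 for Pan-TurboID in each state and for KCl in inputs, and 1 to 2 for DHPG against resting pulldowns. In the knockdown comparisons it left a lone library in a group, so calls of those fits are not given. Alternatives of the difference of the pulldown fold between the knockdown states were chosen after seeing the data. Single values that changed sign ranged, for pulldown over input, from −0.050 to 0.29 for Grin2a (PSD95-TurboID, rest) and from −0.079 to 0.17 for Grin2d (Pan-TurboID, KCl); for PSD95-TurboID beyond Pan-TurboID, from −0.019 to 0.053 for Grin1 and −0.57 to 0.23 for Grin2a; and for its change with KCl, from −0.10 to 0.013 for Grin1, −0.037 to 0.30 for Grin2b and −0.0047 to 0.59 for Grin3a. For KCl they ranged from −0.055 to 0.35 for Grin1 and −0.38 to 0.082 for Grin3a in inputs, from −0.13 to 0.30, −0.037 to 0.18 and −0.43 to 0.54 for Grin1, Grin2a and Grin3a in PSD95-TurboID pulldowns, from −0.43 to 0.13 and −0.30 to 0.51 for Grin2a and Grin3a in Pan-TurboID pulldowns, and from −0.047 to 0.34 and −1.29 to 0.33 for Grin2a and Grin2d in knockdown pulldowns. For DHPG against resting inputs they were −0.033 to 0.083 for Grin1 and −0.27 to 0.11 for Grin2d, and for knockdown against none −0.061 to 0.41 for Grin2a in depolarized inputs and −0.15 to 0.32 for Grin3a in resting pulldowns. For the difference between knockdown states they were −0.49 to 0.62 for Grin2d and −0.15 to 0.045 for Grin3a. The 5′ UTR counts of Grin2a gave −0.30 to 0.070 in inputs and −0.24 to 2.03 in PSD95-TurboID pulldowns, and the 5′ UTR share with KCl changed by −0.135 to 9.42 percentage points for Grin2a and −0.53 to 0.899 for Grin2d.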
